A study of Mus musculus with 192 samples.

Results

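The guanylate-binding proteins measured here are 7 mouse genes, Gbp2, Gbp3, Gbp4, Gbp5, Gbp6, Gbp7 and Gbp9, taken by name from a table of 23481 genes. All 7 had enough counts to be tested, as did 4720 genes in all. The cells were dendritic cells grown from the bone marrow of female C57BL/6J mice aged 6 to 8 weeks in medium with GM-CSF at 15 ng/mL, plated at 100000 cells per well and stimulated for 6 hours. They received 7 ligands of pattern recognition receptors, which the labels call PAM, LPS (lipopolysaccharide), HMW, Zymosan (given there as the depleted form), SeV, cGAMP (3',3'-cGAMP, a cyclic dinucleotide that activates STING) and CpGB. Each ligand was given alone, in all 21 pairs and in all 35 triplets, and with the unstimulated group Ctrl this made 64 groups of 3 libraries. All groups share the strain, and no other genotype, no dose and no donor animal is given per library, so p-values measure the spread between these libraries, which may be technical.

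Guanylate-binding proteins are large GTPases that interferons induce in most cell types. They coat pathogen-containing vacuoles and bacteria in the cytosol, can break open those compartments, and help caspase-4 family proteases and inflammasomes sense what is released. Type I interferon acts on their promoters at interferon-stimulated response elements (ISREs), and interferon gamma acts at gamma-activated sites (GAS) and through the factor IRF1. In dendritic cells, ligands of several pattern recognition receptors make the cells secrete interferon beta, which then acts back on the same culture.

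The genes lie in a pair of clusters. Gbp5 (chromosome 3, 142496934 to 142522344), Gbp7 (142530336 to 142550151), Gbp3 (142560016 to 142573213) and Gbp2 (142620663 to 142638008) stand in this order on the plus strand of GRCm38, with Gbp2b between Gbp3 and Gbp2. Gbp9 (chromosome 5, 105076464 to 105110357), Gbp4 (105115767 to 105139586) and Gbp6 (105270702 to 105295871) stand on the minus strand. No protein-coding gene of another family was annotated by RefSeq between the first and the last gene of either cluster. The promoter stretches below show what the members of the chromosome 3 cluster have in common ahead of their start sites. RefSeq promoter sequences (GRCm38.p6, 250 bases before to 50 bases after each start) matched 4 of the 7 members, Gbp2, Gbp3, Gbp5 and Gbp7. The core of the ISRE was searched as GAAA, any 2 bases and GAAA on both strands, so that a match on the other strand reads TTTC, any 2 bases and TTTC, and stands in capitals.
Gbp2, chr3:142620589-142620628, plus strand: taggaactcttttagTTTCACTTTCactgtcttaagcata
Gbp3, chr3:142559984-142560029, plus strand: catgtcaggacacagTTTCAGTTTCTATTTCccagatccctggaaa
Gbp5, chr3:142496754-142496793, plus strand: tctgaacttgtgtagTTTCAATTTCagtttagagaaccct
Gbp7, chr3:142530268-142530307, plus strand: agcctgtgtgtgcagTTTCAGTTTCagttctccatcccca
All 4 genes had a match, against 1126 of 32817 promoters of the same length (3.43%). The matches began 59 bases before the start site in Gbp2, 53 in Gbp7, 165 in Gbp5 and 45 in Gbp3, where a pair of matches overlapped; the other listed start of Gbp3 had none. The GAS, searched as TTC, any 3 bases and GAA, which reads alike on both strands, was found ahead of Gbp5 and Gbp7 and in neither Gbp2 nor Gbp3, against 8.29% of all promoters. A match is a description of letters and not a measured site.

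The counts are of unique molecular identifiers (UMIs), tags that mark single cDNA molecules, and are given below as CPM, the usual counts scaled to a common library size, with TMM factors. Totals ran from 46564 to 610234 per library with a median of 171616.5, and Ctrl had the lowest group mean, 73431 ± 14389 (SD over 3 libraries). Ctrl values of most members therefore rest on few molecules: the 3 libraries together held 52 for Gbp2, 13 each for Gbp3 and Gbp7, 6 for Gbp5, 3 for Gbp4 and 2 each for Gbp6 and Gbp9. Relatives could share reads. Over the GENCODE M21 transcripts, 70.65% of the 50-base words of Gbp6 also occurred in another gene (64.98% in Gm43302 and 45.95% in Gbp10), against 12.74% for Gbp7, 8.05% for Gbp9, 7.7% for Gbp4 and under 4% for the other 3 members. How the counting treated such reads is not given in the sources used here, and Gbp10 had 0 counts in all libraries, so the row of Gbp6 may hold reads of these genes too. The 8 dendritic cell markers listed summed to 4769 to 6765 CPM per library, mostly from the antigen presentation genes H2-Aa, H2-Ab1 and Cd74. Itgax and Cd86 had counts in every library, while Ciita, Flt3 and Zbtb46 held 160, 95 and 99 counts in all, in 100, 68 and 71 libraries, too few to be tested, and Zbtb46 had 0 in Ctrl. Macrophage or monocyte markers summed to 821 to 2756 CPM per library, to 1610 to 1999 in Ctrl and to between 922 and 2119 in the means of the single-ligand groups. Of the 6 tested, 2 rose and 2 fell with LPS, 1 rose and 3 fell with PAM, 2 rose and 1 fell with CpGB, 1 rose and 1 fell with SeV and cGAMP each, 1 fell with Zymosan and none was called with HMW. Fcgr1 rose with LPS, SeV, cGAMP and CpGB, as the members did, by 2.04 to 3.32 on the log2 scale, and the part of these markers in the results was not tested. Granulocyte markers summed to 215 to 845 CPM per library and to 491 to 728 in Ctrl; of the 3 tested, Retnlg fell with LPS and PAM, while S100a8 (log2 differences of 0.55 and 0.80) and S100a9 (0.43 and 0.23) were not called there, and their part was not tested either. T or NK cell markers gave 20 counts over all libraries with Cd3e at 0, B cell markers gave 79, and interferon gamma (Ifng) gave 1.

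Which ligands moved the family was asked first of the single ligands. Against Ctrl, 29 of 49 tests (7 members, 7 ligands) called a member higher and none lower, at an adjusted p under 0.05 and a log2 fold change of at least 1 in edgeR's quasi-likelihood test. Over all genes tested, 8.7% of tests were called higher and 4.95% lower. LPS, SeV and cGAMP each raised all 7 members (14.6%, 10.5% and 11.7% of all genes were higher with them), and CpGB raised 6, all but Gbp9 (10.8%). PAM raised Gbp2 and Gbp3 (8.01%). HMW and Zymosan raised none (0.953% and 4.43%); the lowest adjusted p with each was that of Gbp2, at 0.0304 with HMW and 0.0394 with Zymosan, and its log2 fold change stayed under 1. At an unadjusted p under 0.05, Gbp2 and Gbp7 passed with HMW and Gbp2 with Zymosan, and no member was lower with any ligand. DESeq2 likewise called none with HMW or Zymosan and none lower. Without the second Ctrl library or the third HMW library, Gbp2 with HMW passed the fold threshold (1.05 in both fits), and without the second Ctrl library Gbp6 with PAM and Gbp9 with CpGB were called too, their Ctrl counts then being 0. The median log2 fold change of the 7 members was 4.22 with LPS, 3.50 with cGAMP, 3.39 with SeV, 3.10 with CpGB, 1.69 with PAM, 1.11 with HMW and 0.75 with Zymosan, beside medians between -0.09 and 0.03 over all genes tested. In every call but that of Gbp9 with SeV, each of the 3 ligand libraries stood above each Ctrl library. All 7 comparisons share the same Ctrl libraries.

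**Figure D1:**
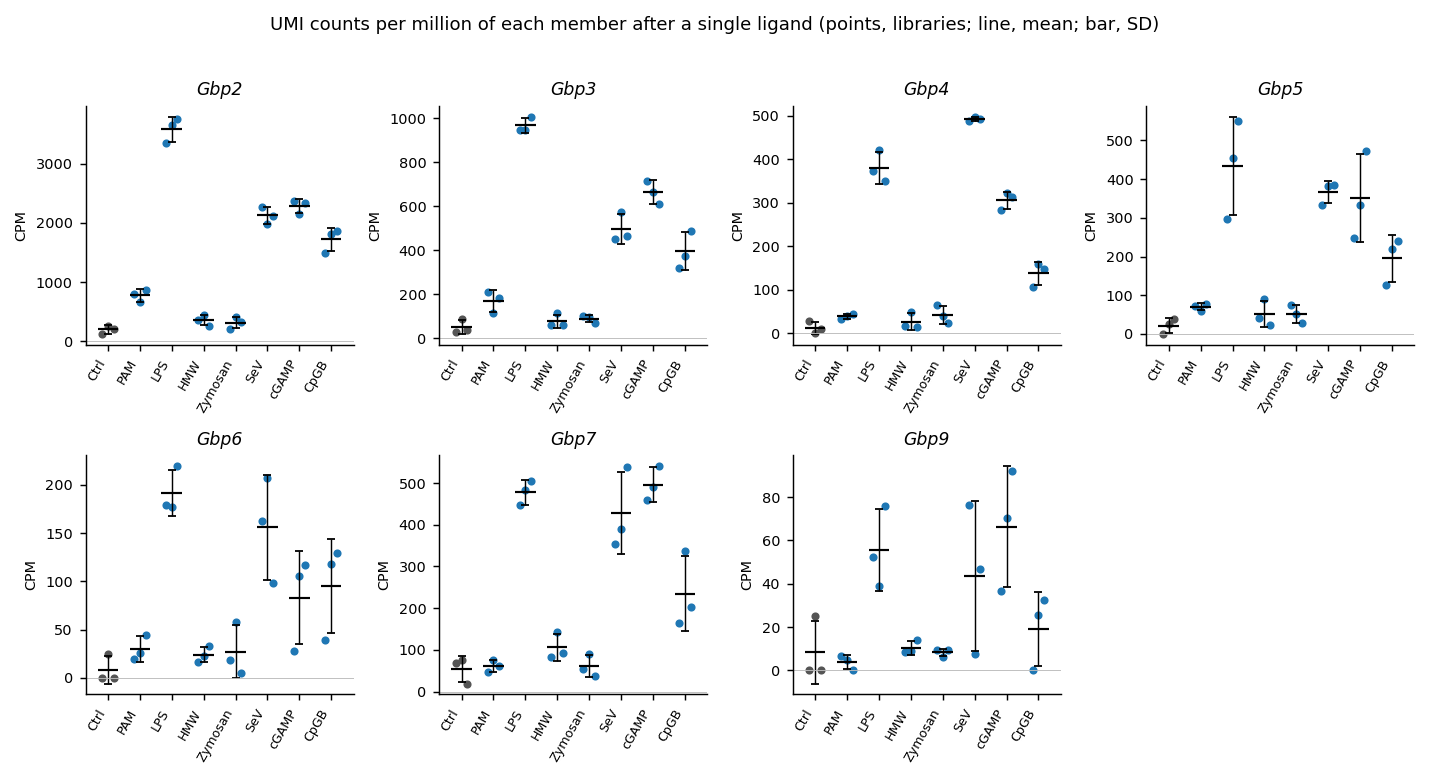
UMI counts as CPM (vertical axis, linear, 1 panel per gene) of the 7 members in Ctrl and after each single ligand; points are the 3 libraries, lines their mean and bars the SD. LPS, SeV, cGAMP and CpGB stand above Ctrl in most panels. Of PAM, HMW and Zymosan, only PAM was called, in Gbp2 (779 CPM against 199 in Ctrl) and Gbp3 (170 against 51.1). The PAM means of Gbp4 (39.2 against 12.4), Gbp5 (70.1 against 21.1) and Gbp6 (29.8 against 8.31) also lay above Ctrl. They were not called, with 3, 6 and 2 counts in Ctrl.

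Gbp2 and Gbp5 encode members that carry a lipid anchor for membranes. Gbp2 stood at 125, 262 and 211 CPM in Ctrl and at 3342, 3658 and 3750 with LPS, with no overlap between the groups. The log2 difference was 4.14, with an SE of 0.21 (adjusted p = 9.97e-59, edgeR). With PAM its libraries held 807, 659 and 872 CPM, a log2 fold change of 1.94 ± 0.22 (adjusted p = 1.01e-16, edgeR). SeV (2128 ± 145), cGAMP (2292 ± 119) and CpGB (1722 ± 198 CPM, SD, n = 3) lay between the PAM and LPS values. Gbp5, which has been tied to NLRP3 inflammasome assembly, was at 0, 24.9 and 38.4 CPM in Ctrl and at 298, 454 and 550 with LPS, a log2 fold change of 4.22 ± 0.67 (adjusted p = 8.26e-18, edgeR). SeV brought Gbp5 to 367 ± 28.6 CPM and cGAMP to 351 ± 114 (SD, n = 3), and CpGB to 195 ± 60.6. The 3 PAM libraries of Gbp5 held 72.2, 60.3 and 77.8 CPM, all above Ctrl, and yet the adjusted p was 0.0692 in edgeR's test (0.0354, a call, with no filter on low counts).

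Gbp3 and Gbp7 complete the measured members on chromosome 3. Gbp3 stood at 27.7, 87.3 and 38.4 CPM in Ctrl and at 945, 948 and 1007 with LPS, higher by 4.24 ± 0.40 on the log2 scale (adjusted p = 2.54e-34, edgeR). Gbp3 with PAM was at 210, 116 and 183 CPM, again without overlap with Ctrl (log2 fold change 1.70 ± 0.43, adjusted p = 0.000147, edgeR). Gbp7, linked to oxidative killing in phagocytes, was at 69.3, 74.8 and 19.2 CPM in Ctrl and at 458, 491 and 540 with cGAMP, a log2 fold change of 3.28 ± 0.41 (adjusted p = 4.34e-19, edgeR). The Gbp7 values with LPS (478 ± 29.7 CPM) and SeV (428 ± 98.3) lay beside it. With PAM, Gbp7 was at 60.8 ± 14.7 CPM against 54.4 ± 30.6 in Ctrl, and its log2 difference of 0.28 was under its SE of 0.47.

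The members on chromosome 5 had 2 or 3 molecules in Ctrl, so the ratio of counts is given for them with a 95% interval that covers counting error only. Gbp4 was at 27.7, 0 and 9.60 CPM in Ctrl and at 487, 498 and 492 with SeV. The ratio of pooled counts was 42.2, with an interval from 14.2 to 206, and the fitted log2 change was 5.31 ± 0.92 (adjusted p = 1.17e-20, edgeR). LPS brought Gbp4 to 381 ± 36.9 CPM, cGAMP to 306 ± 19.5 and CpGB to 138 ± 27.2 (SD, n = 3). Gbp6 had its 2 Ctrl molecules in a single library, at 24.9 CPM, and held 179, 177 and 219 CPM with LPS, a ratio of 25.0 (interval 6.76 to 209). Gbp9 also had both molecules in that library. It was at 36.7, 70.1 and 92.1 CPM with cGAMP, a ratio of 8.97 (interval 2.28 to 77.4, adjusted p = 0.00126, edgeR), and at 76.5, 7.66 and 46.9 CPM with SeV, where the second library lay under the highest Ctrl library (adjusted p = 0.0404). The SeV call of Gbp9 was lost with other size factors, with DESeq2 (adjusted p = 0.132) and without the first or the third library of Ctrl or SeV, and its LPS call without the third Ctrl library (adjusted p = 0.0682) and with thinned libraries (0.0759). Without the third library of every group its LPS and cGAMP calls were lost as well (adjusted p = 0.187 and 0.11). With CpGB, Gbp9 was at 0, 25.5 and 32.3 CPM, an adjusted p of 0.303.

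Direct comparisons between ligands do not use Ctrl. Of 147 such tests (21 ligand pairs, 7 members), 106 were called (adjusted p below 0.05), 38 with the first-named ligand higher and 68 with it lower, against 8.85% and 9.99% of all genes. Of the 84 tests that set LPS, SeV, cGAMP or CpGB against PAM, HMW or Zymosan, 81 were called, with the former higher each time. That division of the ligands follows the calls against Ctrl in the same libraries, so this count describes it and is no separate evidence for it. Among LPS, SeV, cGAMP and CpGB themselves 20 of 42 were called. CpGB was below LPS and cGAMP in 6 members each and below SeV in 3. Gbp2 was higher with LPS than with SeV by a log2 difference of 0.76 ± 0.12 (adjusted p = 2.68e-08, edgeR) and Gbp3 by 0.97 ± 0.16 (adjusted p = 8.78e-08). For Gbp4 the order was turned, 493 ± 5.41 CPM with SeV against 381 ± 36.9 with LPS, and the difference of 0.37 ± 0.20 on the log2 scale was not called (adjusted p = 0.254). Between SeV and cGAMP no member was called, although Gbp3, Gbp4 and Gbp6 had an unadjusted p under 0.05, and the lowest adjusted p was 0.0813 for Gbp4 (higher with SeV by 0.68 ± 0.21, edgeR). PAM was above both HMW and Zymosan for Gbp2 and Gbp3, whereas Gbp7 was lower with PAM than with HMW (60.8 against 107 CPM, adjusted p = 0.0479, edgeR).

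Across all 63 stimulated conditions, 406 of 441 tests called a member higher than Ctrl and none lower, against 14.3% higher and 9.03% lower for all genes. Gbp2 and Gbp3 were called in 61 conditions, Gbp5 in 60, Gbp4, Gbp6 and Gbp7 in 59 and Gbp9 in 47. All 35 triplets raised the 6 members other than Gbp9, and 30 of them raised Gbp9. The conditions in which a member other than Gbp9 was not called were PAM, HMW, Zymosan and the pair PAM and Zymosan. Together the 7 members took 0.0413% of UMIs in Ctrl and 0.679 ± 0.0466% (SD, n = 3) with LPS, HMW and SeV, the highest share of the 64 groups.

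**Figure D2:**
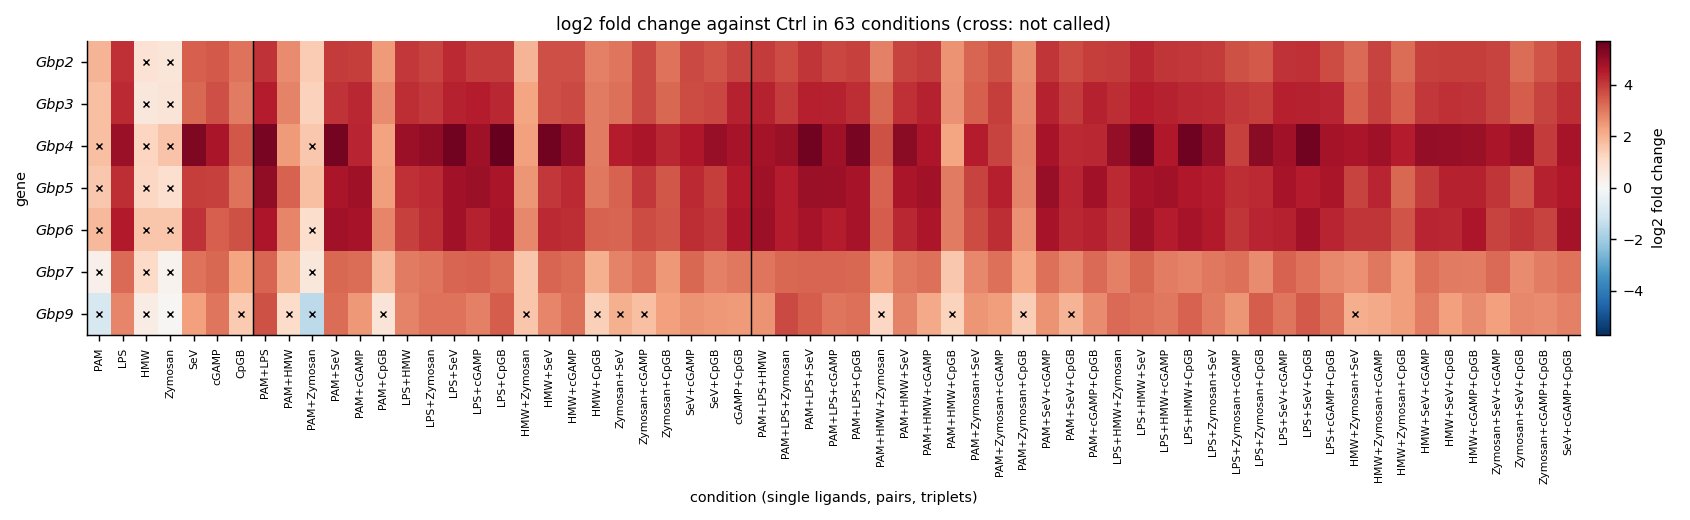
log2 fold change against Ctrl (colour) of the 7 members (rows) in the 63 stimulated conditions (columns), ordered as single ligands, pairs and triplets; a cross marks a test that was not called. The palest columns are PAM, HMW and Zymosan alone and the pair of PAM and Zymosan, and the crosses elsewhere lie in the row of Gbp9.

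The levels fell into ranges by ligand. In the 8 groups without LPS, SeV, cGAMP or CpGB, Gbp2 ran from 199 CPM in Ctrl to 1509 in PAM with HMW and Zymosan, with a median of 662. In the other 56 it ran from 1080 (PAM and CpGB) to 3985 (LPS, HMW and SeV), with a median of 2920, and 4 of the 56 lay under the highest of the 8. Such ranges overlapped for every member, by between 4 and 8 groups. Ctrl was the lowest group for every member but Gbp9, whose lowest was PAM and Zymosan with 1 count in 3 libraries. The highest group differed by gene. It was LPS, HMW and SeV for Gbp2, LPS and cGAMP for Gbp3 (1154 CPM) and Gbp7 (542), LPS and CpGB for Gbp4 (649), PAM and LPS for Gbp5 (774), PAM, LPS and HMW for Gbp6 (248), and PAM, LPS and Zymosan for Gbp9 (112). Neighbours in each order were rarely apart, and their libraries overlapped at most of the 63 steps between adjacent groups for every member.

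How ligands combine was asked of the pairs. On the log2 scale the members added up to less than the sum of both single effects in 51 of 147 tests and to more in none (adjusted p under 0.05, edgeR, and none at an unadjusted p under 0.05), against 3.5% and 1.08% of all genes. These interactions use the Ctrl libraries. Pairs drawn from LPS, SeV, cGAMP and CpGB held 37 of the 51, of 42 possible, with called values from -5.37 to -2.27. The pair in these 42 tests differed from its stronger single ligand by a median log2 difference of 0.12 (range -0.73 to 1.00). LPS with cGAMP and SeV with cGAMP gave a negative interaction in all 7 members. For Gbp7, LPS alone gave a log2 fold change of 3.22, cGAMP alone 3.28 and both together 3.38, an interaction of -3.12 ± 0.44 (adjusted p = 5.25e-13, edgeR). Outside these pairs, PAM with CpGB had the most such members, 5 (Gbp2 to Gbp6). Gbp2, the member with the most Ctrl counts, had 15 of its 21 pairs called and Gbp9 had 2.

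**Figure D3:**
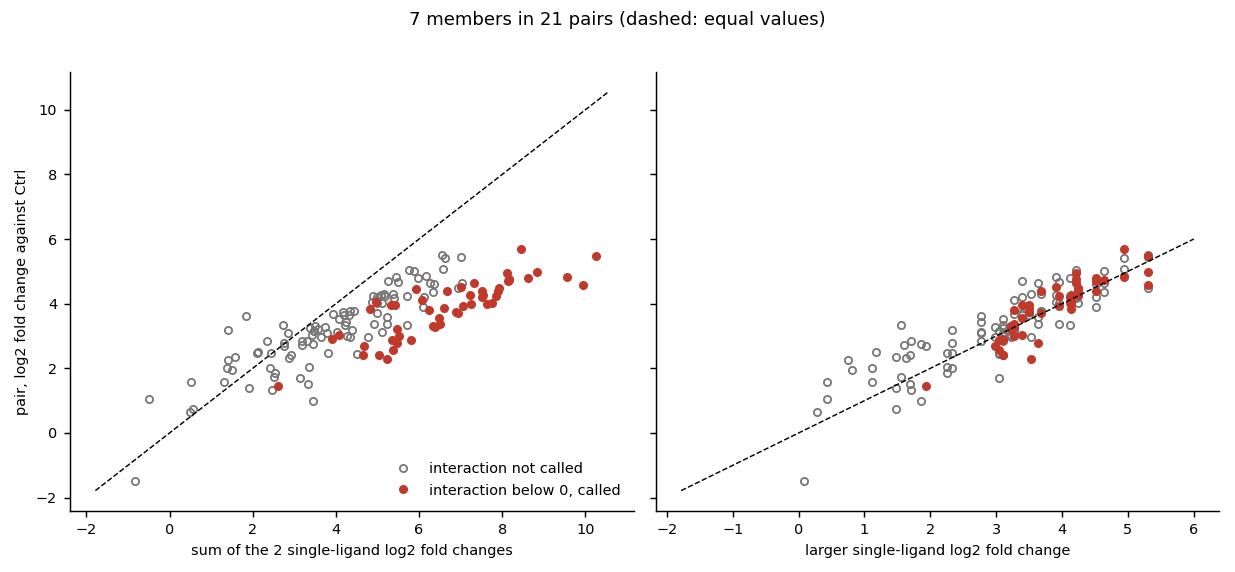
log2 fold change of a pair against Ctrl (vertical axis) for 7 members in 21 pairs, set against the sum of both single-ligand changes (left) and against the larger of them (right); filled points have a called interaction below 0, and the dashed line marks equal values. The filled points leave the line on the left as the sum grows, with called interactions down to -5.37, and lie nearer to it on the right.

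A stricter question, which needs no Ctrl library, is whether a pair exceeded each of its single ligands by at least 1 on the log2 scale. This was so in 7 of 147 tests, against 0.353% of all genes. With library size alone the number was 4, and with libraries thinned to the lowest total it was 3. Of the 7 calls, 5 came from PAM with HMW and HMW with Zymosan, pairs whose single ligands gave no call against Ctrl other than Gbp2 and Gbp3 with PAM. Gbp3 stood at 365, 362 and 370 CPM with PAM and HMW, against 170 ± 48.6 with PAM and 76.9 ± 30.5 with HMW (SD, n = 3). All pair libraries lay above all single-ligand libraries, and the fitted log2 difference from PAM, the higher single ligand, was 1.13 (adjusted p = 8.87e-06, edgeR). Gbp5 stood at 225, 291 and 215 CPM in that pair, against 70.1 ± 8.91 with PAM and 51.5 ± 34.3 with HMW. Its log2 difference from PAM, again the higher single ligand, was 1.79 (adjusted p = 1.20e-06, edgeR). With HMW and Zymosan, Gbp2 was at 680, 702 and 938 CPM, against 357 ± 87.6 with HMW and 316 ± 99.4 with Zymosan (1.14, adjusted p = 1.65e-09). Without the third library of the pair or of HMW the difference was 0.96 or 0.98, under the fold threshold. Gbp3 in the same pair was at 216, 236 and 266 CPM, against 76.9 ± 30.5 and 89.1 ± 16.7 (1.49, adjusted p = 6.75e-06). Gbp5 was at 108, 100.3 and 179 CPM there, against 51.5 ± 34.3 and 50.9 ± 22.8 (1.33, adjusted p = 0.0159). This call was lost without the third library of the pair, of HMW or of Zymosan or its first HMW library (adjusted p from 0.052 to 1). The call of Gbp3 with PAM and HMW was lost without the second PAM library (0.90), while Gbp3 with HMW and Zymosan and Gbp5 with PAM and HMW kept theirs without any single library of their groups. Without the third library of every group, all 3 calls of HMW with Zymosan were lost: Gbp2 (0.79, adjusted p = 0.0882), Gbp3 (1.25, adjusted p = 0.259) and Gbp5 (0.55, adjusted p = 1).

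Gbp6 gave the other calls. With PAM and cGAMP it was at 159, 280 and 212 CPM, against 19.7, 25.1 and 44.5 with PAM and 83.1 ± 48.5 with cGAMP (log2 difference 1.30, adjusted p = 0.00102, edgeR). With cGAMP and CpGB it was at 238, 242 and 161 CPM, against 83.1 ± 48.5 and 95.1 ± 49.1 (1.00, adjusted p = 0.0193), which lies at the threshold of 1. In cGAMP alone the first Gbp6 library held 3 counts and the others stood at 105 and 117 CPM. Without that library both Gbp6 pairs lost their call (0.99 for PAM and cGAMP, 0.92 for cGAMP and CpGB). The call for PAM and cGAMP was also lost without the second pair library (adjusted p = 0.0576), and that for cGAMP and CpGB without the first or second pair library or the first CpGB library (0.77 to 0.93). Without the fold threshold 19 tests passed (0.805% of all genes), among them PAM with SeV and PAM with cGAMP for Gbp2, Gbp3 and Gbp5. No member fell below both single ligands with or without the fold threshold, against 0.0504% and 0.0999% of all genes.

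**Figure D4:**
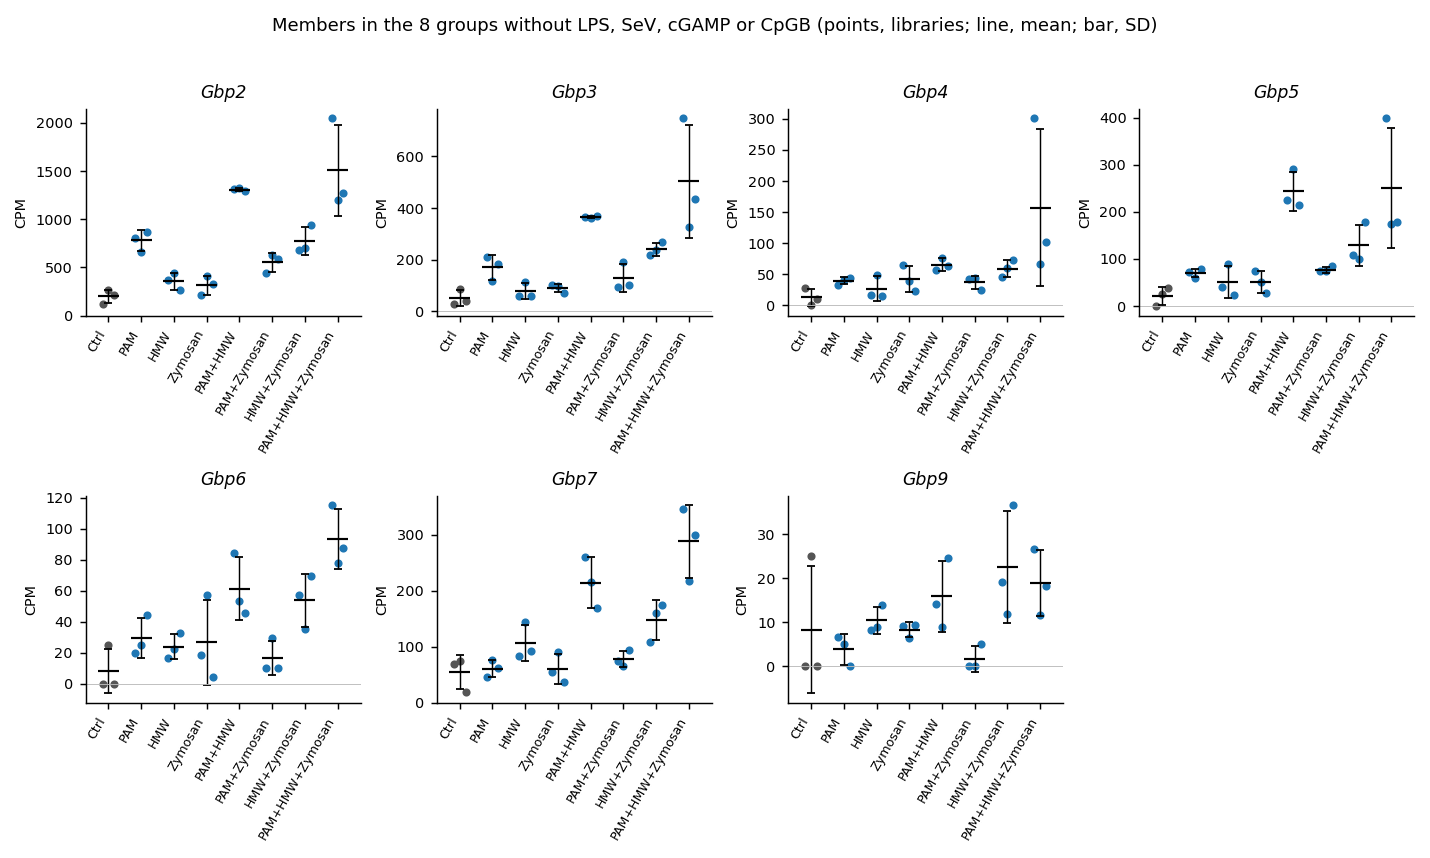
UMI counts as CPM (vertical axis, linear, 1 panel per gene) in the 8 groups made of Ctrl, PAM, HMW and Zymosan; points are libraries, lines their mean and bars the SD. PAM with HMW and HMW with Zymosan stand above their single ligands for Gbp2, Gbp3 and Gbp5, PAM with Zymosan stays below PAM for Gbp2 and Gbp3, and the first library of the triplet is the highest of its group in all 7 panels.

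The interferon factors were read in the same libraries. Ifnb1, which encodes interferon beta, was at 12.0 ± 2.17 CPM in Ctrl (3 counts), 6.81 ± 6.71 with PAM and HMW and 8.80 ± 7.75 with HMW and Zymosan (SD, n = 3), levels of 4 and 6 counts. In 3 other pairs Ifnb1 exceeded both single ligands: LPS with CpGB (186 ± 64.2 CPM, log2 difference 3.24, adjusted p = 2.36e-09, edgeR), cGAMP with CpGB (409 ± 66.7 CPM, 1.10, adjusted p = 0.00257) and Zymosan with cGAMP (403 ± 102 CPM, 1.08, adjusted p = 0.00388). Among the members in these pairs, only Gbp6 with cGAMP and CpGB was called above both by at least 1, Gbp3 with cGAMP and CpGB and Gbp4 with LPS and CpGB passed without the fold threshold, and LPS with CpGB held the highest group mean of Gbp4 (649 ± 35.4 CPM). Irf7, a factor that amplifies interferon production, was at 723, 577 and 662 CPM with PAM and HMW, against 245 ± 44.0 with PAM and 334 ± 133 with HMW. That pair exceeded both by a log2 difference of at least 0.99 (adjusted p = 6.74e-05, edgeR), short of the fold threshold. With HMW and Zymosan, Irf7 was at 527 ± 72.3 CPM, 0.70 above the higher single ligand (adjusted p = 0.0402). Among single ligands, Ifnb1 was called with SeV (251 ± 8.63 CPM) and cGAMP (196 ± 78.8), while with LPS it was at 13.4 ± 11.8 CPM and with CpGB at 22.5 ± 14.7 at the time of harvest, where the members were high. Whether these factors have a part in the members' levels was not tested.

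Among the 35 triplets, 1 of 245 tests exceeded all 3 pairs by at least 1 on the log2 scale, against 0.0115% of all genes. This was Gbp4 with PAM, HMW and Zymosan, at 301, 66.2 and 102 CPM, against 65.2 ± 10.1, 37.1 ± 10.5 and 58.8 ± 14.2 in the pairs (SD, n = 3). The value rests on the first library: without it the smallest difference was 0.36 (adjusted p = 1, edgeR), and the call was also lost without the first or the third PAM and HMW library or the first or second HMW and Zymosan library (adjusted p from 0.0525 to 0.185). That library held 0.364% of its UMIs in the 7 members, against 0.203% and 0.230% in the other two, and 1413 CPM of Irf7 against 654 and 922. Without the fold threshold the same test passed (0.0297% of all genes) and none was below all pairs (0.00182%). The three-way interaction, which asks whether a triplet departs from what its pairs and singles give on the log2 scale, was positive in 32 of 245 tests and negative in none (0 also at an unadjusted p under 0.05), against 0.803% and 0.13% of all genes. Of these, 22 of 28 were in the triplets drawn from LPS, SeV, cGAMP and CpGB, where the pair interactions were most negative. These triplets were not higher than their pairs by the rule above. The three-way value subtracts the pairs and Ctrl and adds the single ligands. Where singles, pairs and triplet stand at like levels above Ctrl it is positive, so its sign there is no separate result. Gbp2 with LPS, SeV and cGAMP had an interaction of 3.13 ± 0.29 (adjusted p = 3.23e-20, edgeR). The 32 became 18 with all libraries thinned to the lowest total and 15 without the third library of every group. They use the Ctrl libraries too, and became 25, 36 and 23 without the first, the second and the third of these.

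The design also gives the effect of each ligand on 22 backgrounds, Ctrl, 6 single ligands and 15 pairs. Averaged over these, 38 of 49 tests called a member higher and 1 lower, against 21.1% and 19.2% of all genes. LPS, SeV, cGAMP and CpGB raised all 7 members on average (29.6%, 20.6%, 28.2% and 19% of all genes were higher). For Gbp7 with CpGB the mean was 0.24, whereas the difference was positive on 7 of the 22 backgrounds and its median was -0.16. Gbp4 with cGAMP had a mean of 0.91 and a median of 0.027, with 11 backgrounds positive and 5 called lower. Gbp2 with CpGB was positive on 12 (median 0.17). HMW raised 6 on average, all but Gbp9 (7.94%), by log2 differences between 0.14 for Gbp7 and 0.34 for Gbp6. The HMW difference of Gbp7 was positive on 6 of 22 backgrounds (median -0.11) and that of Gbp5 on 10 (median -0.0098), so these means do not describe most backgrounds. PAM raised Gbp2, Gbp3, Gbp5 and Gbp6 (21.2%), by 0.25 to 0.49. Its difference for Gbp2 was positive on 12 of 22 backgrounds and called lower on 2. Zymosan raised none (21.3%) and lowered Gbp2 by a log2 difference of -0.08 ± 0.03 (adjusted p = 0.0182, edgeR), a call that was lost with no filter on low counts, without the second Ctrl library and without the second or the third library of every group. For LPS the average addition ranged from 0.89 for Gbp7 to 1.56 for Gbp9.

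**Figure D5:**
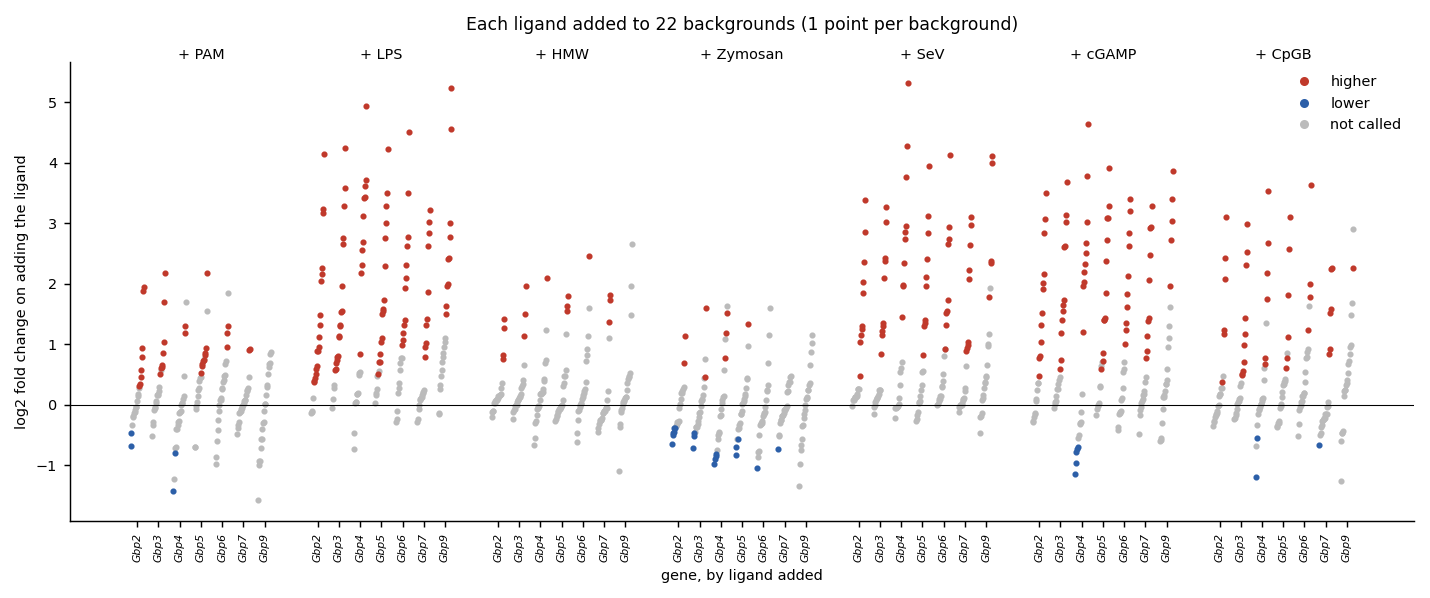
log2 fold change when a ligand is added to a background (vertical axis), with 22 backgrounds per gene and ligand as points; red points were called higher, blue ones lower and grey ones not called. LPS has 95 red points and none in blue, Zymosan has 8 red and 18 blue, and 5 of the blue points under cGAMP are all in Gbp4.

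Background by background, 324 of 1078 additions were called higher and 30 lower, against 4.76% and 2.65% of all genes. These calls needed an adjusted p under 0.05 and no minimum fold change, also on Ctrl. Added LPS raised a member in 95 tests and lowered none (8.73% and 5.74% of all genes), SeV in 63 with none lower (4.09% and 1.49%), cGAMP in 72 with 5 lower (7.81% and 4.4%) and CpGB in 39 with 3 lower (3.82% and 2.31%). PAM gave 32 higher and 4 lower (4.21% and 2.6%) and HMW gave 15 higher and none lower (0.656% and 0.0828%). At an unadjusted p under 0.05, LPS lowered a member in 2 tests, both of Gbp4, HMW in 6 and SeV in none. Of the 15 higher calls of HMW, all but Gbp2 on Ctrl were on backgrounds of PAM, Zymosan or both. The change of Gbp2 on Ctrl, 0.81, was under the fold threshold of the single-ligand calls, where it was not called. HMW added to PAM and Zymosan raised the 6 members other than Gbp9, for example Gbp7 from 78.3 to 288 CPM (log2 fold change 1.82 ± 0.28, adjusted p = 7.12e-10, edgeR). Without the first library of the triplet, the highest of its group in every member, the rise of Gbp4 was not called (1.26, adjusted p = 0.0741) and the other 5 kept their calls, with values from 1.14 to 2.30. Zymosan gave 8 higher and 18 lower (4.01% and 1.95%).

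Falls came most often from added Zymosan, the ligand whose share of falls among the members stood most above that of all genes. Of its 18 falls, 2 were called with all libraries thinned to the lowest total (Gbp2 on PAM and SeV, Gbp5 on LPS and cGAMP), and 10, 7 and 5 without the first, the second and the third library of every group. Of the 30 falls with any ligand, 2 were called with thinning and 19, 12 and 10 without these libraries. Zymosan added to PAM with SeV lowered Gbp2, Gbp3, Gbp4, Gbp5 and Gbp6, of which Gbp4 alone was called without the second library of every group. Gbp2 went from 3046, 3718 and 2748 CPM to 1997, 1887 and 2164, with no overlap (log2 change -0.65 ± 0.12, adjusted p = 6.94e-06, edgeR), and Gbp4 from 470, 597 and 554 CPM to 285, 277 and 267 (-0.98 ± 0.21, adjusted p = 0.000275). Gbp7 in this comparison went from 490 to 340 CPM and was not called. PAM added to CpGB lowered Gbp2, from 1494, 1813 and 1858 CPM to 1069, 1155 and 1016 (-0.68 ± 0.13, adjusted p = 0.000132; 0.0613 with thinning). The means of the other 6 members were lower there too and none was called, the nearest being Gbp4, from 138 to 59.4 CPM (adjusted p = 0.0602). PAM added to Zymosan and CpGB lowered Gbp2 and Gbp4, and neither was called without the third library of every group. Gbp4 was the member with the most falls, 13 of the 30. With cGAMP, PAM and CpGB the share of falls among the members was near or below that of all genes (4.4%, 2.6% and 2.31%), so these falls are given as values of single genes. Added cGAMP lowered it on 5 backgrounds, SeV, PAM and SeV, LPS and Zymosan, LPS and SeV, and LPS and CpGB, and no other member on any. On SeV it fell from 487, 498 and 492 CPM to 313, 283 and 299, again without overlap (-0.73 ± 0.21, adjusted p = 0.036, edgeR), a call lost without the second or the third library of every group (adjusted p = 0.268 and 0.201), and on LPS and CpGB the change was -0.96 ± 0.21 (adjusted p = 0.000891; 0.0678 with thinning). Whether Gbp4 differs from the other members in this was not tested.

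The members were compared with each other over the 64 group means of log2 CPM. Libraries and depth are common to all genes in such a correlation, which is given as a description. Pearson's r was highest for Gbp2 and Gbp3 (0.986) and for Gbp3 and Gbp5 (0.981), all on chromosome 3, and lowest for Gbp2 and Gbp9 (0.832), where counts were few. Of the genes outside the family, those most like Gbp2 were AW112010 (r = 0.969), Slfn8 and Usp18, a protease that removes ISG15. Gbp3 was nearest to Slfn8, AW112010 and Helz2, and Gbp5 to Helz2 (0.964), Tapbp, which loads peptides on MHC class I, and Ifi205. Gbp7 was nearest to Ifi47, an immunity-related GTPase (0.973), Ifit1 and Pyhin1. Gbp4 was nearest to Mx1 (0.947), an antiviral GTPase, Ifi44 and Gm14446, and Gbp6 to Mx1 (0.958), AW112010 and Tor1aip1. Gbp9 was nearest to P2ry14 (0.923), Ifi44 and Phf11d. With Irf7 the members' r lay between 0.886 and 0.960, with Stat2 between 0.805 and 0.901, with Irf1 between 0.771 and 0.880, with Ifnb1 between 0.511 and 0.647, and with the cytokine genes Il6, Tnf and Il1b between 0.333 and 0.584, 0.215 and 0.505, and 0.0794 and 0.315.

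Other genes that work with the family were read from lists. Of 4 other Gbp genes in the table, Gbp8 passed the filter (1253 counts in all libraries) and was called higher with LPS, SeV and cGAMP, by log2 fold changes of 3.01, 4.55 and 4.02. Gbp2b held 148 counts in all and Gbp11 126. The immunity-related GTPases, which act on the same vacuoles, had 5 of 7 members tested. All 5 rose with LPS, SeV and cGAMP, 3 with CpGB and HMW and 2 with PAM and Zymosan, with median log2 fold changes of 3.48, 3.96, 3.64, 2.52, 1.31, 0.63 and 0.67 in this order. Of all genes 14.6%, 10.5%, 11.7%, 10.8%, 0.953%, 8.01% and 4.43% rose with these ligands. Irgm1 and Igtp were higher with all 7 ligands, Igtp by 2.83 with HMW and 2.00 with Zymosan. With these ligands alone no guanylate-binding protein was called against Ctrl under the same fold threshold.

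Of 9 tested inflammasome and pyroptosis genes, 7 rose and 1 fell with LPS, 6 rose with SeV and CpGB, 5 rose and 1 fell with PAM, 4 rose with cGAMP, 2 with Zymosan and none with HMW. Here and for the lists that follow, the shares of all genes that rose were 14.6% with LPS, 10.5% with SeV and 10.8% with CpGB. They were 8.01% with PAM, 11.7% with cGAMP, 4.43% with Zymosan and 0.953% with HMW. Casp4, which senses cytosolic lipopolysaccharide, rose by 2.80 with LPS and by 1.29 to 2.63 with PAM, SeV, cGAMP and CpGB, and Zbp1 by 4.21 with LPS. Il1b rose by 4.71 with PAM, was at 0.16 with cGAMP and 0.38 with SeV and was not called there. Pycard, the adaptor of the inflammasome, fell by 1.55 on the log2 scale with PAM. Of 16 tested genes of interferon signalling, 11 rose with SeV, 10 with cGAMP, 8 with LPS, 6 with CpGB, 5 with PAM and 3 with HMW and Zymosan; Ifngr1, a chain of the interferon gamma receptor, fell with PAM, LPS, SeV, cGAMP and CpGB. Of 11 tested genes for targeting and ubiquitin, 1 rose and 3 fell with LPS, 2 rose and 2 fell with SeV, 1 rose and 2 fell with CpGB, 1 rose and 1 fell with cGAMP and Zymosan each, 2 fell with PAM and none was called with HMW; over all genes and the 7 ligands 8.7% of tests were called higher and 4.95% lower. Trim21, an antibody receptor and ubiquitin ligase, rose by 2.67 with LPS and by 1.87 to 2.22 with SeV, cGAMP and CpGB, and Atg7, an enzyme of autophagy, fell with PAM, LPS, Zymosan, SeV and CpGB. Of the prenylation enzymes that place the lipid anchor, only Fnta of 6 had enough counts to be tested and it was not called with any ligand, the log2 changes lying between -0.81 and 0.15.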

How the data were processed

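The deposited table gives UMI counts per gene for 192 libraries, with reads aligned by BWA 0.7.15 to mm10 per the submitters' processing notes. The authors' counts are raw; the annotation, the collapsing of UMIs and the treatment of reads that map to several genes are not given in the sources used here. Totals ran from 46564 to 610234 counts per library, and no 2 libraries were identical. Genes were kept by edgeR's filterByExpr (4720 of 23481, 95.7% of UMIs), scaled by TMM and tested with edgeR 4.0.16's quasi-likelihood F-test in R 4.3.3, in 1 fit with a coefficient per group (128 residual degrees of freedom). P-values were adjusted by the Benjamini-Hochberg method over all genes in each contrast. A call needed an adjusted p under 0.05 and, against Ctrl or against all parts of a combination, a log2 fold change of at least 1. Additions of a ligand to a background, Ctrl among them, needed no minimum fold change. For a combination against its parts the largest p counted. The code was tested on simulated data. The members and lists were chosen with earlier results of these data known. Named genes are the 7 members, the listed genes and the 3 genes of highest correlation with each member. No pairing of libraries by replicate number was seen: the median correlation of same-number deviations was 0.00803 over 2016 pairs of groups. This does not cover depth. Totals rose with the number in some groups, as in Ctrl (61823, 68941 and 89530), and fell in others, as in PAM, LPS and SeV (165015, 138600 and 136674). Alternatives were other scalings, no filter, DESeq2 1.42.0, thinned counts, a replicate block and left-out libraries.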

Additional observations from a re-analysis of the deposited data

How the results depend on the processing

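The 29 calls of single ligands against Ctrl became 28 with RLE size factors, library size alone, DESeq2 or only the ligand and Ctrl libraries, and 27 to 32 with a library left out. No member was called lower against Ctrl, and no pair interaction was positive, under any setting tried. The 7 calls of a pair above both single ligands became 4 with library size alone, 3 with libraries thinned to the lowest total and 19 without the fold threshold. The call of a triplet above its pairs became 0 with library size alone, with thinning, and without the first or the third replicate of all groups. With thinning, 18 three-way interactions (32 without it) and 228 additions to single backgrounds (354) were called, and 15 three-way interactions without the third replicate of all groups. Thinning discards counts; the cause of the other changes was not tested. RLE size factors, library size alone and DESeq2 moved the median of all genes with single ligands to as low as -0.21, -0.36 and -0.21 on the log2 scale, from -0.09.

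Changes of sign came in uncalled single-ligand values. Gbp9 with Zymosan was at -0.035 with RLE size factors, -0.039 with library size alone and -0.041 with DESeq2, and Gbp9 with HMW was at -1.74 with thinning. With 1 replicate of all groups left out, Gbp9 was at -0.37 and -0.72 with Zymosan, -0.51 with HMW and 2.31 with PAM, Gbp7 at -0.18 with PAM and Gbp4 at -0.15 with HMW. With 1 library left out, Gbp7 ran from -0.22 to 0.63 with PAM and from -0.30 to 0.56 with Zymosan, and Gbp9 from -1.62 to 2.58 with PAM, from -0.27 to 3.95 with HMW and from -0.61 to 3.60 with Zymosan. The highest Gbp9 values are fits against Ctrl libraries at 0 and are no bounds.

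With the replicate number as a block, the calls against Ctrl stayed at 29 for single ligands and 406 in all conditions. Pair interactions stayed at 51 and comparisons between ligands at 106. With libraries thinned to the lowest total, these counts were lower, at 27, 371, 38 and 86 in this order. Without the third library of every group they were 27, 367, 41 and 93. The block gave 6 pairs above both single ligands, 33 three-way interactions and 360 additions to single backgrounds. No pairing by number was seen in the correlations. Depth limits Gbp9, Gbp6 and Gbp4 most, with 2 or 3 counts in the Ctrl libraries, and where leaving out 1 library leaves 2 in a group, the spread is pooled over the other groups.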
